A study of Mus musculus with 8 samples.

Results

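Hyaluronan is a long, unbranched sugar polymer of the extracellular matrix, and this account covers 8 mouse genes for its synthesis, its receptors and its turnover. The genes are Has1, Has2, Has3, Ugdh, Cd44, Hmmr, Hyal1 and Hyal2. Each was read by its probe sets, groups of short array probes summarised as 1 value, where the annotation names that gene and no other. This gave 15 of the 45037 probe sets tested and 7 of the 18193 named genes. Hyal1 has no value here, because its 2 probe sets are also annotated to the neighbouring gene Naa80. The list was chosen in part on the log2 differences between the groups compared here, which were already known, so those differences are given as a description and no test is drawn from them.

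Mouse embryonic stem (ES) cells carrying the strain label Oct4-Gip, at passage 25, were given an esiRNA by lipofection and read on day 4 on 1-colour Affymetrix arrays. An esiRNA is a mixture of short double-stranded RNAs made from a longer transcript. In 4 samples it was directed against Ctr9, a subunit of the Paf1 complex that accompanies RNA polymerase II, and in 4 control samples against luciferase, which these cells do not encode. The labels do not say whether cultures were separate. The p-values therefore reflect how far these arrays spread, in part perhaps for technical reasons, and the number of arrays limits the precision.

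Hyaluronan is made at the plasma membrane by the synthases Has1, Has2 and Has3, which join glucuronic acid and N-acetylglucosamine taken from UDP-sugars. Ugdh makes the UDP-glucuronic acid. Cells bind the polymer through Cd44, which is tied to cortical actin, and through Hmmr (also called RHAMM), which in dividing cells also sits on the mitotic spindle. Hyal2 at the cell surface and Hyal1 in lysosomes cut the polymer, and Has2 is the synthase that mouse embryos need for heart development.

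The promoters of 3 members that differed between the groups are shown as a description only. They are the 250 bases before the RefSeq start on GRCm38.p6, 5′ to 3′ on the strand of the gene, and capitals mark CCAAT on either strand in Hmmr and GGGCGG on either strand in Ugdh. Hmmr lies at chr11:40733438-40733687 (minus strand), Cd44 at chr2:102901666-102901915 (minus strand) and Ugdh at chr5:65435843-65436092 (minus strand).
Hmmr: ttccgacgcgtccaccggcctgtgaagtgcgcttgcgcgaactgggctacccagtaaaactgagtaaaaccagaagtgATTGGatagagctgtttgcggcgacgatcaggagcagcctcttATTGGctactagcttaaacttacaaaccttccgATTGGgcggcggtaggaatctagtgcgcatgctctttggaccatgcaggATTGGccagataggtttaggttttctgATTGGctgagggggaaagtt
Cd44: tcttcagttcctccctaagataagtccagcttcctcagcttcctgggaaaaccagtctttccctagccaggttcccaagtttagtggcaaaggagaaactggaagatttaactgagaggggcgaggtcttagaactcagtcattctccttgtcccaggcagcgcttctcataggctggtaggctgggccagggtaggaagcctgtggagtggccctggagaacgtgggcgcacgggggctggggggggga
Ugdh: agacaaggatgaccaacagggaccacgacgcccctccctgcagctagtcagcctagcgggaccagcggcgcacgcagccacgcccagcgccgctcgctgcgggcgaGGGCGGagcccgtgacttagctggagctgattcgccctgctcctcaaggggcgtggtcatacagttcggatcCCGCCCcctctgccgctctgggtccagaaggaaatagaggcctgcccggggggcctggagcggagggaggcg

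The Hmmr window held 5 matches to CCAAT, at least 5 of which were found in 0.213% of the 32851 promoter windows of the same length, while 33.8% held at least 1. Cd44 and Ugdh held no CCAAT. Ugdh held 2 matches to GGGCGG and Hmmr 1, which overlaps a CCAAT match, and 32.7% of all windows held at least 1. Among the mitotic genes listed below as partners of Hmmr, 12 of 14 with a promoter in the table held CCAAT. Each gene was counted once, by its window with the most matches, whereas the shares above count every window. The 14 include Ccnb1, which has no array value here. Top2a had the most matches, 6, and differed between the groups by -0.011. Of the partners called higher or lower below that have a promoter here, Nusap1 (-0.27) held 0, Brca1 (-0.22) 1 and Dynll1 (0.15) 2. Dlgap5 and Kif20a, which were also called, have none. A link between matches and the direction of change was not tested. The other motifs searched on both strands were TTTGAA (in 16.0% of windows), TGANTCA (6.75%), TGACGTCA (1.55%), GGAATG (12.6%) and TATAAA (12.4%), and none of these was in the 3 windows shown. The motifs were chosen after the sequences were seen, and a match is only a run of letters. Promoters of 6 of the 8 genes were in the table, and those of Has2 and Has3 are not among them.

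The labelled cell type was read from 13 ES cell marker genes, whose mean log2 signal lay between 12.61 and 12.64 in the luciferase arrays and between 12.29 and 12.32 in the Ctr9 esiRNA arrays. Of these, 8 were called lower and 1 higher (limma, Benjamini-Hochberg adjusted p under 0.05), against 15% and 15.8% of all genes. Their differences ran from -1.10 (Esrrb) to 0.79 (Lin28a). Within a group, Pearson's r between arrays was 0.997 to 0.998, and upper quartiles were 8.10 to 8.15. The brightest probe set of the targeted gene Ctr9 read 10.20 ± 0.058 (SD, n = 4) with luciferase esiRNA and 10.11 ± 0.027 (SD, n = 4) with Ctr9 esiRNA, a difference of -0.089 that did not pass (limma, Benjamini-Hochberg adjusted p = 0.209). Both other bright probe sets of Ctr9 fell, by 0.15 and 0.18 (limma adjusted p = 0.0398 and 0.0279). Of the 2 dim ones, 1 rose by 0.29 (limma adjusted p = 0.0228) and the other differed by 0.27 (0.125). The groups are named here as the labels name them.

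Has2, Cd44, Ugdh and Hyal2 read higher with Ctr9 esiRNA, Hmmr read lower, and Has1 and Has3 were not called. A probe set was called where limma's Benjamini-Hochberg adjusted p over all probe sets was under 0.05. Of the 15 probe sets, 7 were called higher and 5 lower. Over the whole array 24.9% of probe sets were called, 11.8% higher and 13.1% lower. For 12 of the 15 the values of one group all lay to one side of the other's, against 28.6% of all probe sets. Since this contrast was known when the genes were put together, nothing is read from these counts. The median difference of the 15 was 0.063 on the log2 scale and that of all probe sets was -0.0080, while the medians of the absolute differences were 0.36 and 0.10.

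**Figure D1:**
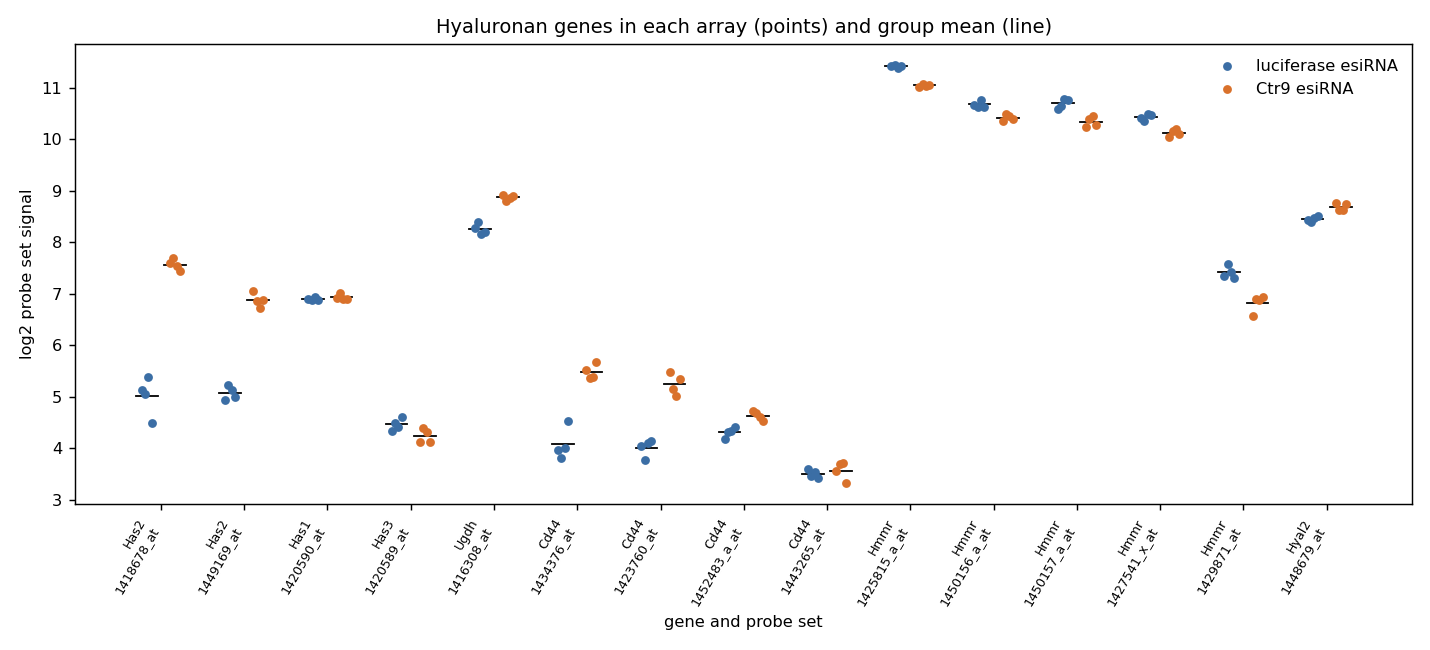
Log2 signal (vertical axis) of the 15 probe sets of hyaluronan genes (horizontal axis) in each of the 4 luciferase esiRNA arrays (blue) and 4 Ctr9 esiRNA arrays (orange), with the group mean as a line. The groups do not overlap for both Has2 probe sets, 3 of 4 Cd44 probe sets, all 5 Hmmr probe sets, Ugdh and Hyal2, and they overlap for Has1 and Has3.

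The synthases did not move together. Has2, the synthase best known in embryos, was read by 2 probe sets. The 2 were about as bright in the controls, and 1418678_at was the brighter over all 8 arrays only through its Ctr9 esiRNA values. On 1418678_at the luciferase arrays read 5.13, 5.05, 5.37 and 4.49 and the Ctr9 esiRNA arrays 7.59, 7.69, 7.54 and 7.43 (log2 signal). All 4 Ctr9 esiRNA arrays lay above all control arrays, among which replicate 4 was the lowest. The means were 5.01 ± 0.373 and 7.56 ± 0.107 (SD, n = 4 each), a log2 difference of 2.55 (SE 0.155) or 5.87-fold. Without luciferase replicate 4 the difference was 2.38 (SE 0.0876).

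The other Has2 probe set, 1449169_at, read 4.94, 5.22, 5.13 and 5.0 in the luciferase arrays and 7.04, 6.86, 6.71 and 6.87 in the Ctr9 esiRNA arrays. Here luciferase replicate 4 lay among the other controls. The difference was 1.80 (SE 0.0819), or 3.47-fold, and its 95% interval of 1.61 to 1.98 did not reach that of the first probe set, 2.21 to 2.90. Both probe sets point the same way and the size differs between them. With luciferase esiRNA, 39.5% and 40.6% of all probe sets were dimmer than these 2, and no background level is given with the values. By absolute difference, 10 probe sets of the array lay above 1418678_at and 49 above 1449169_at. The genes were chosen in part on these differences, so the ranks only describe them.

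Has1, another plasma membrane synthase, read 6.89, 6.88, 6.94 and 6.88 with luciferase esiRNA and 6.92, 7.01, 6.90 and 6.90 with Ctr9 esiRNA. The values of the groups overlapped, and the difference was 0.037 (95% interval -0.065 to 0.14). Has3, which is known for making shorter chains than Has2, read 4.34, 4.49, 4.40 and 4.60 against 4.12, 4.39, 4.32 and 4.11. Its difference was -0.22 (95% interval -0.40 to -0.043), with overlapping groups and no call. Without Ctr9 esiRNA replicate 2, the highest of its group, Has3 was called lower at -0.28. Only 30.0% of probe sets were dimmer than Has3 in the controls.

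Ugdh, which oxidises UDP-glucose to the UDP-glucuronic acid that all 3 synthases use, read 8.27, 8.39, 8.16 and 8.19 in the luciferase arrays and 8.91, 8.80, 8.86 and 8.89 in the Ctr9 esiRNA arrays. The groups lay apart, at means of 8.25 ± 0.103 and 8.86 ± 0.0496 (SD, n = 4 each). The difference was 0.62 (SE 0.0594), an increase of 53.2%. Its signal was in the upper part of the array, with 76.2% of probe sets dimmer in the controls.

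**Figure D2:**
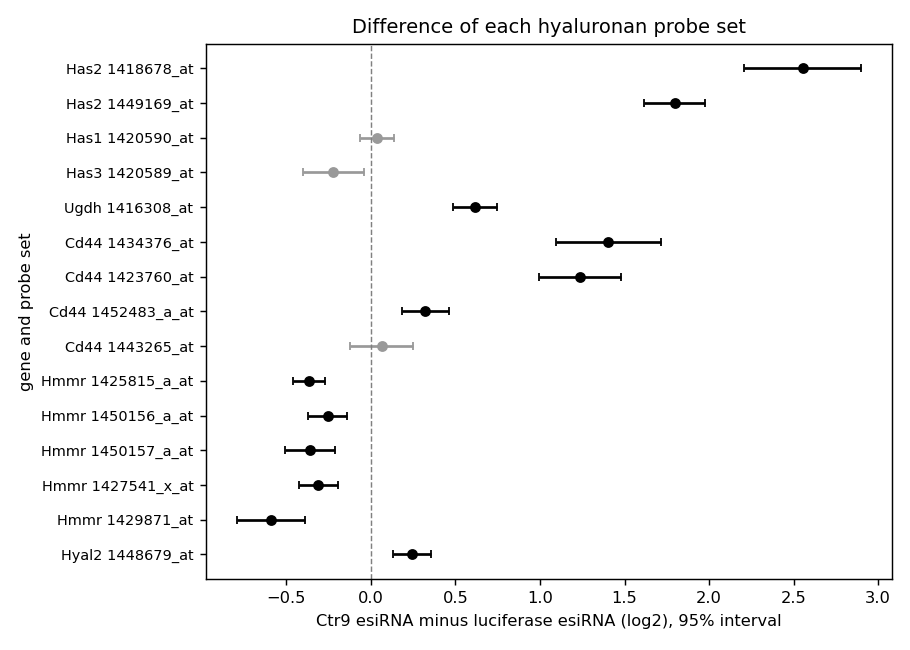
Difference between the mean log2 signals of the Ctr9 esiRNA and luciferase esiRNA arrays (horizontal axis, with limma's 95% interval, n = 4 each) for each of the 15 probe sets (vertical axis); black marks called probe sets and grey those not called. Both Has2 probe sets lie at 1.80 or above, the 5 Hmmr probe sets lie between -0.59 and -0.25, and the 4 Cd44 probe sets spread from 0.063 to 1.4.

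Cd44, the main cell surface receptor of hyaluronan, was read by 4 probe sets. Which of them is brightest depends on the arrays used. In the controls it was 1452483_a_at, and over all 8 arrays it was 1434376_at, through the Ctr9 esiRNA values. On 1434376_at the luciferase arrays read 3.96, 3.81, 4.01 and 4.52 and the Ctr9 esiRNA arrays 5.51, 5.35, 5.37 and 5.68, a difference of 1.4 (SE 0.139) or 2.65-fold. Every Ctr9 esiRNA array lay above every control, of which replicate 4 was the highest. On 1423760_at the values were 4.03, 3.77, 4.09 and 4.13 against 5.47, 5.15, 5.01 and 5.34, a difference of 1.24 (SE 0.108) or 2.36-fold. These 2 probe sets thus read alike.

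The remaining Cd44 probe sets differed less. Probe set 1452483_a_at, the brightest in the controls, read 4.18, 4.31, 4.34 and 4.41 against 4.71, 4.68, 4.60 and 4.53, a difference of 0.32 (SE 0.0623) with groups that did not overlap. Probe set 1443265_at differed by 0.063 (95% interval -0.12 to 0.25), and only 8.70% of probe sets were dimmer in the controls. The mean over all 4 Cd44 probe sets differed by 0.76. The size for Cd44 thus runs from 0.063 to 1.4 with the probe set taken, and from 0.32 to 1.4 among the 3 called ones. With luciferase esiRNA, 20.5% to 27.1% of all probe sets were dimmer than the 3 called ones, so the sizes rest on low control signals.

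Hmmr, the receptor that is also a spindle protein, read lower on all 5 of its probe sets. On the brightest, 1425815_a_at, the luciferase arrays read 11.41, 11.44, 11.37 and 11.42 and the Ctr9 esiRNA arrays 11.02, 11.06, 11.03 and 11.05. The groups lay apart with SDs of 0.0305 and 0.0195 (n = 4 each), and the difference was -0.37 (SE 0.0418), a change of -22.4%. The probe sets 1450157_a_at, 1427541_x_at and 1450156_a_at differed by -0.36, -0.31 and -0.25. The dimmest Hmmr probe set, 1429871_at, read 7.35, 7.58, 7.41 and 7.30 against 6.57, 6.89, 6.88 and 6.94 and had the largest difference, -0.59 (SE 0.0900). These probe sets read 1 gene and are not independent of each other. Unlike those of Has2 and Cd44, the 4 brighter ones were among the brighter probe sets of the array, with 92.6% to 96.4% of probe sets dimmer in the controls.

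Hyal2, the hyaluronidase anchored at the cell surface, read 8.43, 8.39, 8.46 and 8.5 with luciferase esiRNA and 8.75, 8.63, 8.63 and 8.73 with Ctr9 esiRNA. All Ctr9 esiRNA values lay above all control values. The difference was small, at 0.24 (SE 0.050) or 18.3%. Leaving out luciferase arrays 1 and 2 gave 0.21, which was not called.

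**Figure D3:**
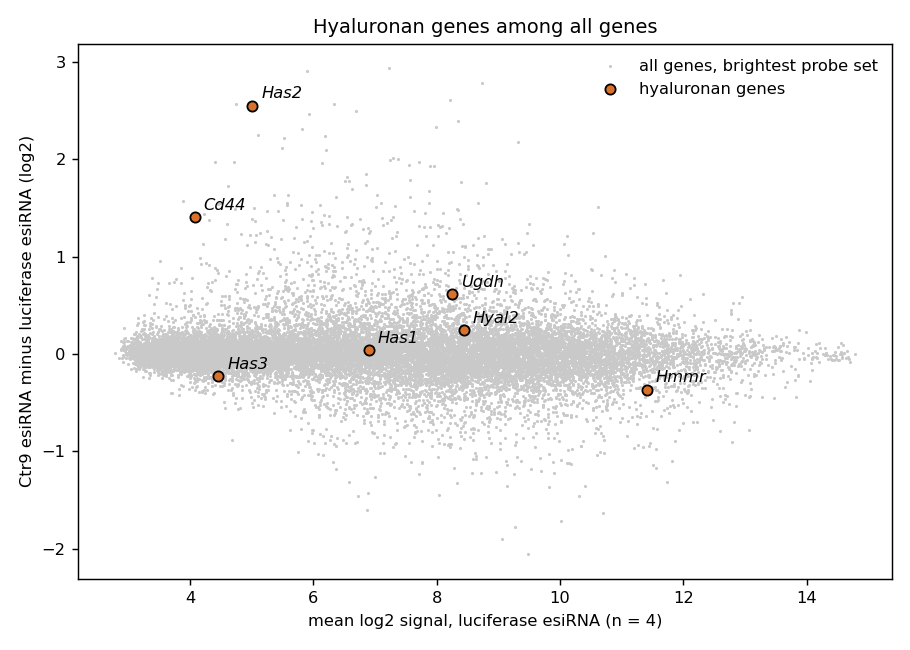
Difference between Ctr9 esiRNA and luciferase esiRNA (vertical axis, log2) against the mean log2 signal of the 4 luciferase arrays (horizontal axis) for 18193 genes on their brightest probe sets (grey) and for the 7 hyaluronan genes (orange). The brightest is over all 8 arrays, which for Has2 (2.55) and Cd44 (1.4) takes probe sets that their Ctr9 esiRNA values made brightest; those brightest in the controls differ by 1.80 and 0.32, and Hmmr (-0.37) lies below 0 at a high one.

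For Has2 and Hmmr, the members with the largest increase and the largest decrease, genes with the nearest pattern to 1418678_at and 1425815_a_at were found by the root mean square difference of the 8 values, each taken relative to its own luciferase mean, over 18017 other genes. Nearest to Has2 were the interferon-inducible GTPase genes Gbp2b (0.22 log2 units away) and Gbp2 (0.26), the keratin genes Krt8 (0.24) and Krt18 (0.26), and the growth factor gene Igf2 (0.26). Nearest to Hmmr were the fatty acid oxidation gene Acadm (0.017), the checkpoint kinase gene Atr (0.023), the spindle gene Haus7 (0.025), the kinase gene Stk38 (0.026) and the kinetochore gene Zwilch (0.026). The 5 genes near Has2 differed between the groups by 2.39 to 2.79 and the 5 near Hmmr by -0.37 to -0.35. With the luciferase mean taken off, this distance mostly follows the size of the difference. A near gene therefore has a like difference by construction, and no shared regulation is read from it. The other Has2 probe set, 1449169_at, with a difference of 1.80, was not used for this.

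The rest of the pathway was read from 6 lists of other genes, with 106 of 113 genes measured, each on its brightest probe set. Of these, 22 rose and 14 fell, at a median difference of 0.030. Over all genes 30.8% were called, 15.8% higher and 15% lower, and the median was 0.0036. The lists were written with earlier results of these data known, and their counts describe them. P-values below are limma's, Benjamini-Hochberg adjusted over all probe sets.

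A list on the supply, transport and other use of UDP-sugars, which holds transporters and O-GlcNAc enzymes beside the supply enzymes, had more lower than higher calls. Of 17 measured, 6 fell, 1 rose and 10 were not called, at a median of -0.036. Of the 6, Slc35d1 is a UDP-sugar transporter gene and Ogt encodes the O-GlcNAc transferase, which uses the sugar. The N-acetylglucosamine kinase gene Nagk fell by 0.51 (SE 0.0558, adjusted p = 0.000108), the phosphoglucomutase gene Pgm2 fell by 0.38 (SE 0.0519) and Uap1l1, a relative of the UDP-N-acetylglucosamine pyrophosphorylase gene Uap1, fell by 0.33 (SE 0.0557). Pgm3, an enzyme of the hexosamine pathway, rose by 0.24 (SE 0.0613, adjusted p = 0.0176), a call that ended without luciferase replicate 3 (adjusted p = 0.0505). Gfpt1, the entry enzyme of that pathway, differed by 0.00010 (SE 0.0481).

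Of 9 other genes of hyaluronan breakdown, 1 rose and 1 fell. The lysosomal hexosaminidase gene Hexa fell by 0.40 (SE 0.0523, adjusted p = 0.000302), and the lysosomal glucuronidase gene Gusb rose by 0.19 (SE 0.0494, adjusted p = 0.0190). With Ctr9 esiRNA replicate 2 or 3 left out, Gusb no longer passed (adjusted p = 0.0550 and 0.0537). Without luciferase replicate 3 the list had 2 lower genes. Hyal3 differed by -0.12 (SE 0.0716, adjusted p = 0.253) and Cemip, a hyaluronan-depolymerising protein, by -0.090 (SE 0.128, adjusted p = 0.678), and Spam1, Hyal5 and Hyal6, hyaluronidase genes known from the testis, lay in the lowest 25% of probe sets.

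Among 26 other receptors and binding proteins, 5 rose and 1 fell. Vcan, which encodes the matrix proteoglycan versican, was the one that fell. It read 8.27, 8.48, 8.44 and 8.31 with luciferase esiRNA and 7.71, 7.64, 7.80 and 7.69 with Ctr9 esiRNA, with groups apart and a difference of -0.67 (SE 0.0615, adjusted p = 3.3e-05). The next 2 brightest Vcan probe sets also fell, by 0.35 and 0.41, and 5 dim ones did not pass. Itih5, of the family whose heavy chains are linked to hyaluronan, rose by 0.44 (SE 0.0823, adjusted p = 0.00288), and the link protein genes Hapln4 and Hapln3 rose by 0.29 and 0.17 (adjusted p = 0.0143 and 0.0432). The dimmer Itih5 probe sets differed by 0.145 and 0.069 and did not pass. With any 1 of the 8 arrays left out, only 2 or 3 genes of this list were called higher, and Hapln3 lost its call without luciferase replicate 2, 3 or 4 or any 1 Ctr9 esiRNA array (adjusted p up to 0.112). Without luciferase replicate 1 or 3, 2 genes of the list were called lower.

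The list of Cd44 partners had most of its calls in 1 direction. Of 14 measured, 8 rose, 1 fell and 5 were not called, at a median of 0.18, against 15.8% of all genes called higher. Esrp1, a splicing factor known to act on Cd44 transcripts, read 8.59, 8.68, 8.63 and 8.72 in the controls and 9.54, 9.52, 9.64 and 9.58 with Ctr9 esiRNA, a difference of 0.91 (SE 0.0499, adjusted p = 1.22e-06). Its relative Esrp2 differed by 0.59 (adjusted p = 0.000244). The protease gene Mmp14, whose product can cut Cd44, rose by 0.55 (SE 0.0607), as did Adam10 by 0.31, and moesin (Msn), which ties Cd44 to actin, rose by 0.39 (SE 0.0472). Nf2, which encodes merlin, a relative of moesin, fell by 0.47 (SE 0.0520, adjusted p = 0.000111), and its 3 other probe sets fell by 0.26 to 0.58. The arrays read no splicing of Cd44 here.

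Of 17 measured genes that work with Hmmr on the spindle or in mitosis, 3 fell, 2 rose and 12 were not called, at a median of 0.036. With the mean of each gene's probe sets, 5 were called lower. With a filter on dim probe sets, or with a prior with trend, 4 were called higher. Blocking on replicate number left 0 called higher. Nusap1 (-0.27, SE 0.0435), Dlgap5 (-0.23, SE 0.0415) and Brca1 (-0.22, SE 0.0464) fell, and the kinesin gene Kif20a and the dynein light chain gene Dynll1 rose by 0.17 and 0.15. Without Ctr9 esiRNA replicate 4 neither Kif20a (adjusted p = 0.0588) nor Dynll1 (0.0572) was called, and without luciferase replicate 3 Kif20a was not (0.0522). The Brca1 call ended with luciferase arrays 3 and 4 left out (0.0646). The kinase genes Aurka and Cdk1 differed by 0.045 and 0.093 and did not pass. In bulk RNA, fewer cells of a kind and less RNA per cell cannot be told apart.

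Among 23 enzymes of the other glycosaminoglycans (GAGs), 5 rose and 2 fell. Hs6st2, a heparan sulfate 6-O-sulfotransferase gene, read 6.64, 6.80, 6.40 and 6.47 in the controls and 8.40, 8.33, 8.34 and 8.36 with Ctr9 esiRNA, a difference of 1.78 (SE 0.0806, adjusted p = 3.71e-07). A dimmer Hs6st2 probe set rose by 1.01 and 2 others did not pass. Dse, a dermatan sulfate epimerase gene, rose by 0.61 (SE 0.0702), Chpf2, of chondroitin synthesis, by 0.29, and Glce and Ext2, of heparan sulfate synthesis, fell by 0.25 and 0.18. Chpf2 lost its call without luciferase replicate 3 or Ctr9 esiRNA replicate 1 or 2 (adjusted p = 0.0521 to 0.0529). Ext2 lost it without luciferase replicate 3 or 4 or Ctr9 esiRNA replicate 1, 2 or 3 (0.0566 to 0.0836). The list's counts ran from 2 to 4 higher and from 1 to 3 lower with 1 array left out, and moved by over 1.5 times in a direction without luciferase replicate 1, 3 or 4 or any 1 Ctr9 esiRNA array.

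**Figure D4:**
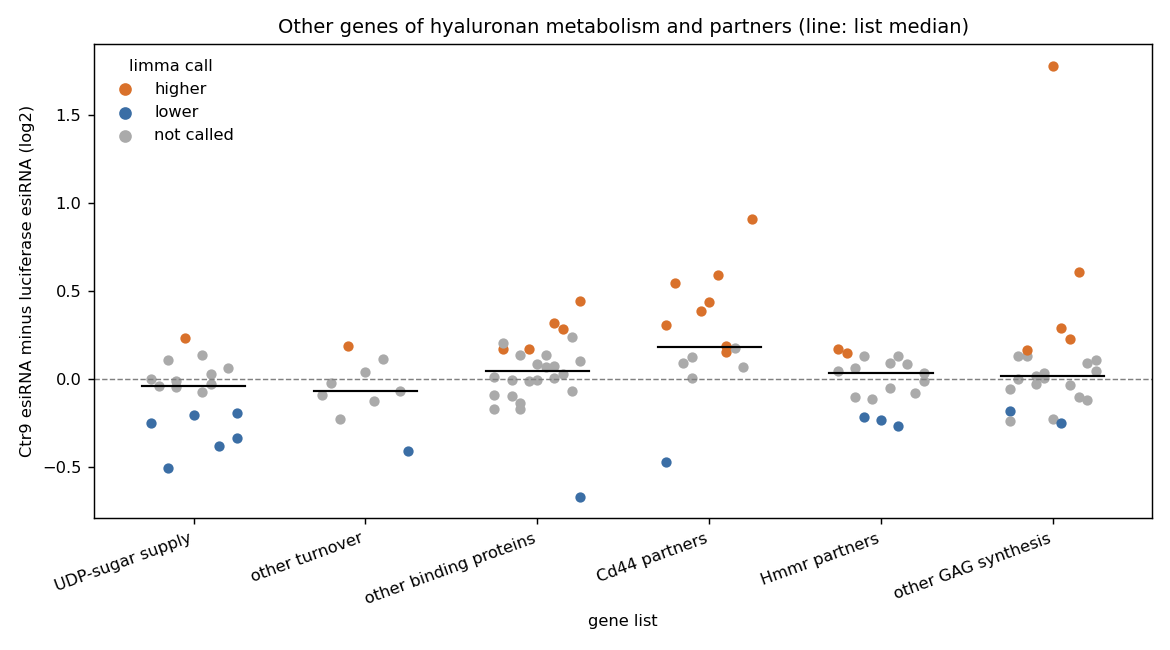
Difference between Ctr9 esiRNA and luciferase esiRNA (vertical axis, log2) of each measured gene in the 6 lists (horizontal axis), with genes called higher in orange, called lower in blue and not called in grey, and the list median as a line. The Cd44 partner list has 8 of 14 genes called higher, the UDP-sugar list has 6 of 17 called lower, and the highest point is Hs6st2 at 1.78.

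Has2 and Cd44 are also made by other cell types, so markers of these were read beside them. For comparison with the counts below, 15.8% of all genes were called higher and 15% lower. Of 21 fibroblast markers, a list for feeder cells, 6 rose and 0 fell. Their mean log2 signal lay between 5.30 and 5.42 in the luciferase arrays and between 5.51 and 5.57 in the Ctr9 esiRNA arrays, and Col3a1, Lum, Fap and Prrx1 lay in the lowest 25% of probe sets. Of 9 trophoblast markers, 6 rose and 0 fell, with a mean between 6.02 and 6.15 against 6.68 to 6.69, and Elf5 lay in the lowest 25%. Of 13 extraembryonic endoderm markers, 4 rose and 2 fell (1 fell without luciferase replicate 1 or 4 or Ctr9 esiRNA replicate 1 or 2, and with arrays centred on their medians or cyclic loess), with a mean of 6.86 to 6.93 against 6.92 to 7.08. Of 7 leukocyte markers 0 rose and 1 fell, and Ptprc and Itgam lay in the lowest 25%. The part of these cell types in the Has2 and Cd44 values was not tested.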

How the data were processed

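Log2 probe set signals of 8 arrays, 4 per group, were used as the authors deposited them. GCOS 1.4 and RMA are named in the submitters' processing notes, with no settings. RMA gives the arrays nearly the same distribution, which hides a shift common to all genes. Leaving out 64 control probe sets left 45037. Symbols came from the platform annotation (34945 probe sets with 1 symbol, 932 with several, 9160 with none) and were updated through Entrez identifiers of the GRCm38.p6 table, which held 34741. The 15 probe sets described have no empty value; 456 values elsewhere are empty and were left out of the fit. Groups were compared with limma 3.58.1 in R 4.3.3 (lmFit, eBayes) with p-values adjusted by Benjamini-Hochberg over the 45037, called under 0.05; SE is limma's moderated standard error. The 1-symbol probe set brightest over all 8 arrays stood for a gene; for 182 genes, Has2 and Cd44 among them, another is brightest in the controls. The fit was tested on simulated data.

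The members and gene lists were chosen with earlier results of these data known. Named are all members, Ctr9, Hyal3, Cemip and Vcan, up to 3 called genes per list and direction with the smallest adjusted p, and the 5 genes nearest in pattern to 2 members. Adam10, Esrp2, Gfpt1, Aurka, Cdk1, Spam1, Hyal5, Hyal6 and Top2a were named after their values were seen. Of 179 genes in pathway and marker lists, 169 were measured. Alternatives were a filter on dim probe sets, other scalings, array weights, a prior with trend, blocking on replicate number, fewer arrays, stricter thresholds and averaging over probe sets. Promoters are RefSeq's. Figures were drawn with matplotlib 3.10.9.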

Additional observations from a re-analysis of the deposited data

Results flagged for a closer look

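Hexa, the lysosomal hexosaminidase gene, read 10.48, 10.47, 10.48 and 10.57 in the luciferase arrays, so that replicate 4 lay apart from the other controls (gap over range 0.848, above Dixon's 95% limit for 4 samples). Of 84 groups of 4 values checked, this was the only one past the limit, and chance gives about 1 in 20. Its Ctr9 esiRNA arrays read 9.99, 10.10, 10.15 and 10.15, all below every control.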

How the results depend on the processing

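The differences of Has2 (1.80 to 2.67), Ugdh (0.54 to 0.69), Cd44 (0.32 to 1.59) and Hmmr (-0.38 to -0.35) kept their direction under every alternative run for them. Their calls stayed too, except under the 1.5-fold threshold. Hmmr's brightest probe set (1.29-fold) and Cd44's 1452483_a_at (1.25-fold) did not reach it. The lowest values of Has2 and Cd44 are those of the probe set brightest in the luciferase arrays. That alternative was chosen after seeing the data and left the pathway calls at 22 and 14. Hyal2 lost its call without luciferase arrays 1 and 2 (0.21), and Has3 gained one in a refit on gene means, where its SE and the number of tests both changed (-0.22), as it did without Ctr9 esiRNA replicate 2, where leaving out 1 array gave -0.28 to -0.18. Among probe sets above the median signal over all arrays, where 10 of the 15 remain, 4 were called higher, 2 of them Has2 probe sets that pass only through their Ctr9 esiRNA values; above the median luciferase signal, also chosen after seeing the data, 8 remain and 2 were called higher. At an adjusted p of 0.01 all probe sets called were 3389 higher and 3611 lower, and 9 pathway genes were higher. With a change of at least 1.5-fold these were 961 and 726, 1 member probe set was lower, and 4 pathway genes were higher and 1 lower. Pathway genes called higher, 22 in the reported fit, were 12 without luciferase arrays 1 and 2 and 12 without 3 and 4, both chosen after seeing the data, and 15 to 19 without 1 array. Deviations of samples with the same replicate number correlated at -0.0776 to 0.0625. These were not set against samples with different numbers, so whether the numbers pair the samples cannot be told. With the replicate block 14 pathway genes were called higher, all 7 higher and 5 lower member calls stayed in number, and Gusb, Hapln3, Kif20a, Dynll1 and Ext2 lost theirs. Cemip, not called, changed sign without luciferase replicate 2 (0.015) or arrays 1 and 2 (0.032), and the mean of Ctr9's probe sets was 0.027. Other causes of these changes were not tested. Scaling moved the median difference by at most 0.0086. Low control signals limit the sizes for Has2, Has3 and Cd44.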
